A study of Homo sapiens with 8 samples.

Results

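The 8 transcripts described here are GAS5, SNHG1, SNHG3, SNHG5, SNHG6, SNHG7, SNHG8 and SNHG12, which are spliced non-coding RNAs that host small nucleolar RNAs (snoRNAs) in their introns. They were taken by name from the 23391 gene rows of the count table, and all 8 were among the 13856 genes that were tested, which reached 1 cpm or more in 2 or more libraries (cpm, reads on the gene per 1000000 reads counted). RNA-Seq libraries were made from DU145, a human prostate cancer cell line, as 4 groups of 2 biological replicates each. DU145-pc3.1 cells were transfected with the empty pcDNA3.1-zeo vector and DU145-Esrrb cells with the same vector carrying Esrrb, the estrogen related receptor beta. Both were selected with Zeocine, pooled and kept in medium with charcoal-stripped serum. The other 2 groups were the same pools treated with 3 μM DY131, a synthetic ligand of Esrrb and Esrrg, for a time that is not given in the sources used here. Whether the untreated cells received vehicle is not given either, so a part of vehicle in the DY131 comparisons was not tested. The comparisons asked what Esrrb expression and its ligand do to the transcriptome.

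A snoRNA host gene makes a spliced RNA and snoRNAs from the same precursor. The introns carry the snoRNAs, which guide the chemical modification or the cleavage of ribosomal RNA, while the exons are joined into a spliced, polyadenylated transcript. Several of these spliced transcripts, GAS5 among them, start with a run of pyrimidines like the mRNAs of ribosomal proteins, hold only short reading frames and are removed by nonsense-mediated decay when ribosomes read them. Mature snoRNAs have no poly(A) tail, and the libraries here were prepared with a kit for polyadenylated mRNA.

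The exons of SNHG5 are shown first, because this transcript had the largest change of the 8. The matched transcript is 430 bases long, in 6 exons on the minus strand of chromosome 6, from 85677084 to 85678733 of GRCh38 (GENCODE 29). Each exon is on a line of its own, 5′ to 3′, and the capitals in exon 1 mark a C followed by pyrimidines at the annotated start.
SNHG5 exon 1: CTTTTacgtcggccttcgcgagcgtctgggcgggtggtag
SNHG5 exon 2: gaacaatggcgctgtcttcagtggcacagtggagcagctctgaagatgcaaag
SNHG5 exon 3: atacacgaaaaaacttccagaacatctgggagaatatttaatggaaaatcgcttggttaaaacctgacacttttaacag
SNHG5 exon 4: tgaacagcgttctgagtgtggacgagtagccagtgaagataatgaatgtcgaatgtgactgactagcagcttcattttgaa
SNHG5 exon 5: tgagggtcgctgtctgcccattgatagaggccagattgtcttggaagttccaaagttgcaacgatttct
SNHG5 exon 6: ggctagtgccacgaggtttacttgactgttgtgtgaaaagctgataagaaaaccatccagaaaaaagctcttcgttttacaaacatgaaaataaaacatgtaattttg

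The exons run from 40 to 108 bases, so that none of them is much longer than 2 reads of 50 bases laid end to end. A C followed by at least 4 pyrimidines opened the matched transcripts of 2 of the 8 members and of 2.79% of all spliced rows. This start is a description of the annotation and no measurement of translation.

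The snoRNAs are shown by 3 that lie within SNHG1, because they differ in length and were counted differently below. The capitals mark box D (CTGA) and, where these letters were found within the first 20 bases, box C (TGATGA).
SNORD26: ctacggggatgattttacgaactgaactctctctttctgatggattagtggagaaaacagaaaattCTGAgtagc
SNORD27: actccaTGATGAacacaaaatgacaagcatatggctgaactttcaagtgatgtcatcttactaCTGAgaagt
SNORD22: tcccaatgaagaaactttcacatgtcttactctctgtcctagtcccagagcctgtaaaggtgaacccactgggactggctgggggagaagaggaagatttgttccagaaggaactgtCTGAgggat

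SNORD26 and SNORD27 are 75 and 72 bases long and SNORD22 is 126 bases long (GENCODE 29, GRCh38). On the strand of the snoRNA, CTGA lay within the last 20 bases of 97.1% of the 242 SNORD rows matched to a sequence, and TGATGA within the first 20 bases of 73.1%.

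Reads counted on genes ranged from 10325443 to 11551690 in the 4 untreated libraries, were 10624183 and 10393389 in DY131-treated DU145-pc3.1 cells, and were 7858743 and 9054498 in DY131-treated DU145-Esrrb cells. Reads on ESRRB came to 8.82 and 9.10 cpm in DU145-Esrrb cells and to 13.7 and 16.2 cpm after DY131, and at most 3 reads were counted on it in a library of DU145-pc3.1 cells. The epithelial markers KRT8, KRT18, EPCAM and CDH1 were counted in all libraries, whereas KLK3, a luminal prostate marker, had 0 reads. A pair of departures has to be known before the values. The 2 libraries of DY131-treated DU145-Esrrb cells had almost no reads on the shortest snoRNA rows. Their columns carry no replicate number, so that they are called libraries A and B. They are all the libraries of this group, so a response to DY131 and a difference in how these 2 libraries were made or read cannot be told apart. Replicate 1 of DY131-treated DU145-pc3.1 cells differed from its replicate more than any other pair did, with a chi-square per degree of freedom of 7.10. It was 2.60 in DU145-pc3.1 and 1.80 in DU145-Esrrb cells, and lowest between libraries A and B, at 1.29. The snoRNA rows of that replicate 1 held 106 cpm, against 61.9 to 70.3 cpm in the other 5 libraries outside the Esrrb plus DY131 group.

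The host transcripts differed widely in exon structure, which is given here because it bears on how short reads are placed. All positions are on GRCh38 in GENCODE 29, while the authors mapped to hg18. GAS5 (chromosome 1, minus strand, 173863901 to 173867987) has 632 bases in 12 exons, the longest of 175 bases, and 72.0% of its windows of 50 bases cross an exon junction. SNHG1 (chromosome 11, minus strand, 62851988 to 62855867) has 1487 bases in 10 exons, the longest of 694 bases, with 25.7% of such windows. In SNHG5 the share was 61.9%, and its longest exon of 108 bases was the shortest of the 8.

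The other members had fewer junctions. SNHG6 (chromosome 8, minus strand, 66921818 to 66925596) has 4 exons with a longest exon of 297 bases and a share of 25.0%. SNHG12 (chromosome 1, minus strand, 28578546 to 28581818) has 6 exons with a longest exon of 229 bases and a share of 37.3%, and SNHG8 (chromosome 4, plus strand, 118278709 to 118279823) has 3 exons with a longest exon of 429 bases and a share of 14.8%. SNHG3 lies on chromosome 1 (plus strand, 28505980 to 28510892) and SNHG7 on chromosome 9 (minus strand, 136725234 to 136728184). Their matched transcripts consist mostly of 1 long exon, of 2063 and 1853 bases, with shares of 3.81% and 2.32%. The longest matching transcript was taken for each gene, so the form that was counted may have other exons.

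Some members share sequence with other genes, so part of their counts is uncertain. Of the windows of SNHG6, 30.9% are antisense to MCMDC2, and 12.2% of those of SNHG7 and 7.81% of those of SNHG3 are found in transcripts of other genes. Same-strand genes that overlap the span of SNHG7 include SNORA17A and SNORA17B, and those of SNHG3 are SNORA73A, SNORA73B and RCC1. Host and snoRNA sequence may thus not be separate in these 2 matched transcripts. GAS5 has an annotated antisense neighbour, GAS5-AS1. The library kit keeps strand, but how the authors' counting used it is not stated.

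By reads, SNHG1 was the most counted host in every library. Per kilobase of the matched transcript the order was different, and SNHG5, SNHG6 and GAS5 led in untreated DU145-pc3.1 cells, with 191 ± 6.31, 147 ± 6.17 and 127 ± 13.4 cpm per kilobase (SD, n = 2). SNHG1 followed with 82.7 ± 10.0 cpm per kilobase. SNHG3, SNHG8, SNHG7 and SNHG12 held the lower part of the order, at 29.6 cpm per kilobase and below, and the libraries of SNHG3 overlapped with those of SNHG8 and those of SNHG7 with those of SNHG12. In DU145-Esrrb cells SNHG5 and SNHG6 were side by side at 153 cpm per kilobase with overlapping libraries. After DY131 SNHG1 led in DU145-Esrrb cells with 143 ± 7.92 cpm per kilobase, and SNHG5 was the last of the 8 with 4.46 ± 0.744 cpm per kilobase. SNHG5 had thus gone from the first or second place to the last, while the order of SNHG6, GAS5, SNHG3 and SNHG8 among themselves was the same in all 4 groups.

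**Figure D1:**
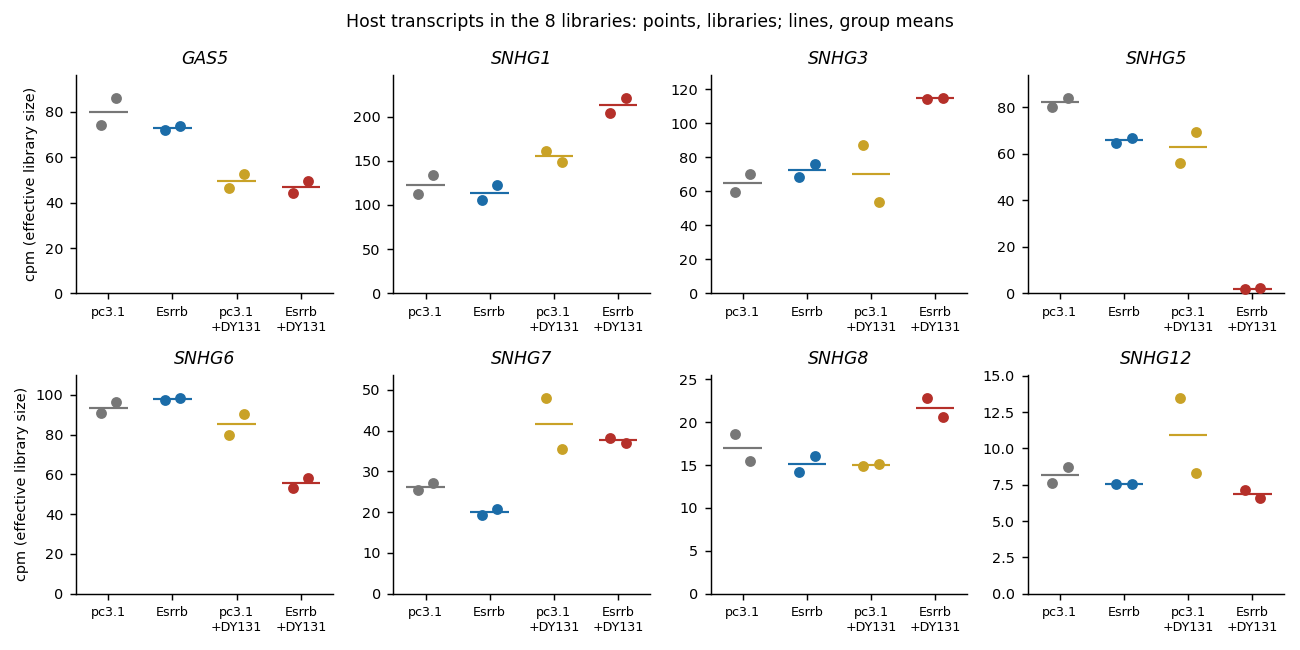
Level of each host transcript (vertical axis, cpm from effective library sizes, starting at 0) in the 4 groups of 2 libraries (horizontal axis), with points for libraries and lines for group means. SNHG5 lies at 1.69 and 2.15 cpm in DY131-treated DU145-Esrrb cells and between 56.2 and 83.9 cpm in the other 6 libraries, while SNHG1 is highest in the DY131-treated DU145-Esrrb libraries.

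Without ligand the host transcripts differed little between DU145-Esrrb and DU145-pc3.1 cells. The pools were transfected and selected separately, so Esrrb and other differences between them cannot be told apart. None of the 8 was called in untreated DU145-Esrrb against DU145-pc3.1 cells by edgeR's quasi-likelihood test (adjusted p below 0.05, with a log2 fold change of 1 or more in either direction), where 0.577% of all tested genes were called, 0.18% higher and 0.397% lower. Without the fold threshold 1 of the 8 passed, SNHG5, where 4.17% of all tested genes did, 1.68% higher and 2.49% lower. The unadjusted p was under 0.05 for 2 of the 8, SNHG5 and SNHG7, and DESeq2 and edgeR's exact test called 0 of the 8 as well. SNHG5 had 80.1 and 83.9 cpm in DU145-pc3.1 cells against 64.5 and 66.8 cpm in DU145-Esrrb cells. Its log2 fold change was -0.32 (SE 0.09, adjusted p = 0.0477), and the adjusted p stayed under 0.05 in 10 of 21 alternative settings. SNHG7, whose row was at 25.4 and 27.1 cpm against 19.3 and 20.8 cpm, had a log2 fold change of -0.39 that did not pass (SE 0.13, adjusted p = 0.117). It passed in 4 of 21 alternatives, among them those without either DY131-treated DU145-pc3.1 library (adjusted p = 0.00510 and 0.00483). The other 6 had log2 fold changes from -0.17 to 0.15, of the size of the spread between replicates.

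DY131 alone, in cells without the Esrrb vector, was followed by small changes in 4 of the 8. None was called with the fold threshold, where 4.19% of all tested genes were (1.02% higher and 3.16% lower), and DESeq2 and edgeR's exact test also called 0, while 5 of the 8 had an unadjusted p under 0.05. At an adjusted p under 0.05, GAS5 and SNHG5 fell and SNHG1 and SNHG7 rose, where 37.4% of all tested genes passed, 18.9% higher and 18.5% lower, so that passing this rule was common in the comparison. These are bulk samples of 1 cell line, in which fewer cells with a transcript and less of it per cell cannot be told apart.

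GAS5, named for its accumulation in growth-arrested cells, was at 74.2 and 86.1 cpm in untreated and at 46.4 and 52.4 cpm in DY131-treated DU145-pc3.1 cells. Both treated libraries were below both untreated ones, and the fall of 1.62-fold was the clearest of the 8 (log2 fold change -0.70, SE 0.09, adjusted p = 2.06e-05). SNHG7, a host of H/ACA snoRNAs, rose from 25.4 and 27.1 to 47.9 and 35.4 cpm (log2 fold change 0.67, SE 0.12, adjusted p = 4.50e-04). The higher of these values belongs to replicate 1, and without that library the log2 fold change was 0.44. SNHG1, the host of SNORD22 and 7 other C/D snoRNAs, rose from 112 and 133 to 162 and 148 cpm (log2 fold change 0.33, SE 0.09, adjusted p = 0.00687). Without replicate 1 of untreated DU145-pc3.1 cells its adjusted p was 0.113. SNHG5 fell from 80.1 and 83.9 to 56.2 and 69.4 cpm (log2 fold change -0.39, SE 0.09, adjusted p = 0.00264). Without treated replicate 1 the log2 fold change was -0.23, and its adjusted p was 0.216 once counts were corrected for how many windows cross exon junctions.

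The remaining 4 hosts did not pass in this comparison. SNHG3, the host of the snoRNAs that take part in the cleavage of ribosomal RNA precursors, was at 59.9 and 70.4 cpm untreated and at 87.2 and 53.7 cpm treated. Its 2 treated libraries lay on either side of the untreated ones. The log2 fold change of 0.12 turned to -0.27 without treated replicate 1 (adjusted p = 0.0209) and was 0.42 without treated replicate 2 (adjusted p = 1.77e-04). SNHG12 was at 7.63 and 8.71 cpm untreated and at 13.4 and 8.32 cpm treated, with the higher value again in replicate 1 (log2 fold change 0.42, SE 0.20, adjusted p = 0.106). Without treated replicate 1 it was 0.03, and without treated replicate 2 it passed at 0.72 (adjusted p = 0.00111). SNHG6 and SNHG8 had log2 fold changes of -0.14 and -0.18 with adjusted p values of 0.154 and 0.305, and SNHG6 passed without treated replicate 2, at -0.23 (adjusted p = 0.0115).

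In DU145-Esrrb cells DY131 was followed by a change in 7 of the 8 hosts at an adjusted p under 0.05, 3 lower and 4 higher, where 58.7% of all tested genes passed, 29.2% higher and 29.5% lower. Only SNHG5 was also called with the fold threshold, where 12% of all tested genes were called, 2.98% higher and 9.04% lower. SNHG5 was nearly lost from the libraries, and SNHG6 and GAS5 were lower by a smaller amount. SNHG1, SNHG7, SNHG3 and SNHG8 were higher. The median log2 fold change of the 8 was 0.19, and that of all tested genes was close to 0.

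SNHG5 was counted with 761 and 727 reads in untreated DU145-Esrrb cells and with 13 and 19 reads in libraries A and B. In cpm it went from 64.5 and 66.8 to 1.69 and 2.15, a fall of 34.2-fold in the group means. Every library of the other 3 groups held at least 602 reads, so the groups were far apart. The log2 fold change was -5.08 (SE 0.17, adjusted p = 5.49e-12). It was negative and called in all 19 alternative settings in which it was computed, from -5.27 to -3.27, and the smallest size came with the correction for windows across junctions.

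SNHG6, the host of SNORD87, fell from 97.3 and 98.2 to 53.3 and 58.2 cpm (log2 fold change -0.81, SE 0.08, adjusted p = 4.88e-07). It kept its sign in all 19 alternatives, between -0.88 and -0.33. GAS5 went from 72.0 and 74.0 to 44.3 and 49.5 cpm (log2 fold change -0.64, SE 0.09, adjusted p = 2.62e-05), close to its change in the cells without Esrrb. Its direction turned when the counts were corrected for windows of 50 bases across exon junctions, to a log2 fold change of 1.76. With windows of 100 bases, an alternative chosen after the data were seen, it was 0.51. The direction given for GAS5 in these libraries thus depends on whether exon structure enters the fit.

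The hosts that rose in DU145-Esrrb cells did so by less than 2-fold each. SNHG1 rose from 105 and 123 to 204 and 221 cpm, which is 1.87-fold (log2 fold change 0.90, SE 0.09, adjusted p = 4.43e-07), and its treated libraries were the highest of all 8. SNHG7 rose from 19.3 and 20.8 to 38.2 and 37.0 cpm (log2 fold change 0.91, SE 0.13, adjusted p = 2.14e-05). SNHG3 rose from 68.4 and 76.4 to 115 cpm in both treated libraries (log2 fold change 0.67, SE 0.14, adjusted p = 9.60e-04). SNHG8, the host of SNORA24, rose from 14.2 and 16.1 to 22.8 and 20.6 cpm (log2 fold change 0.51, SE 0.13, adjusted p = 0.00274). These 4 kept their direction and an adjusted p under 0.05 in all 19 alternatives. SNHG12, at 7.55 and 7.54 cpm untreated and at 7.16 and 6.55 cpm treated, did not pass (log2 fold change -0.14, SE 0.22, adjusted p = 0.607).

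**Figure D2:**
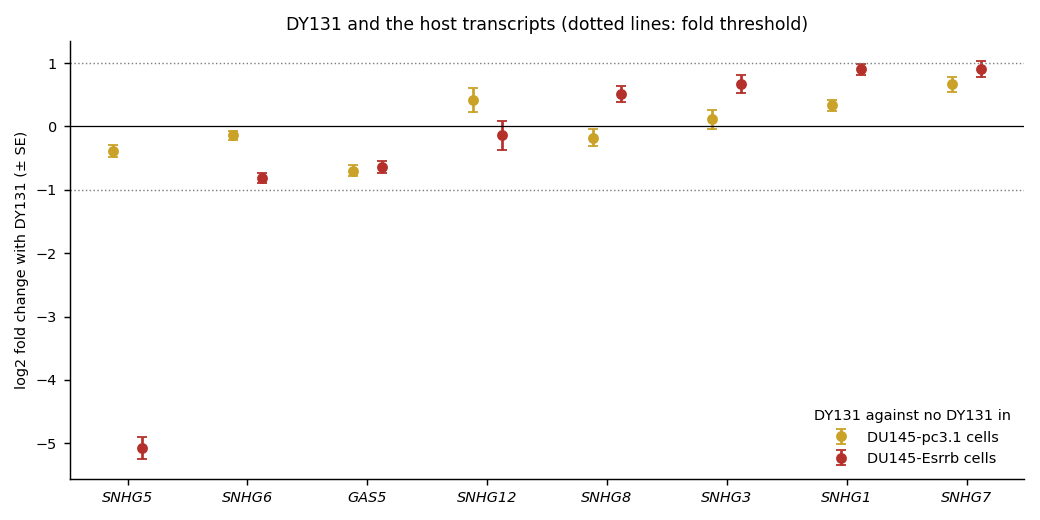
Log2 fold change with DY131 (vertical axis, points with SE) of the 8 host transcripts (horizontal axis) in DU145-pc3.1 and DU145-Esrrb cells, 2 libraries against 2 in each. SNHG5 lies at -5.08 in DU145-Esrrb cells and at -0.39 in DU145-pc3.1 cells, and the other 7 stay within the dotted lines at -1 and 1 in both.

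Whether the response to DY131 differed between the pools was tested with the interaction term, where 6.28% of all tested genes were called (1.54% higher and 4.74% lower) and 33.7% passed without the fold threshold (16.1% higher and 17.6% lower). Of the 8 hosts 1 was called and 4 passed without the fold threshold. SNHG5 had an interaction of -4.69 on the log2 scale (SE 0.21, adjusted p = 2.99e-10). SNHG1 rose more in DU145-Esrrb cells by 0.57 (SE 0.12, adjusted p = 0.00241), and SNHG6 fell more, with an interaction of -0.67 (SE 0.11, adjusted p = 2.67e-04). The interaction of SNHG8 was 0.69 (SE 0.18, adjusted p = 0.00855), from a negative log2 fold change in one pool and a positive one in the other. It passed in 14 of 17 alternatives. Those in which it did not were DESeq2 (adjusted p = 0.056) and the fits without replicate 1 of untreated DU145-pc3.1 cells, at 0.54, and without library A, at 0.61. SNHG3, SNHG12, SNHG7 and GAS5 did not pass, with interactions of 0.55 (SE 0.21), -0.56 (SE 0.30), 0.24 (SE 0.18) and 0.06 (SE 0.13). Without replicate 1 of DY131-treated DU145-pc3.1 cells SNHG3 and SNHG7 passed, at 0.93 and 0.46, and without replicate 2 of that group SNHG12 passed, at -0.86 (adjusted p = 0.00542). SNHG3 also passed with no filter and with the correction for length and GC content (adjusted p = 0.0397). GAS5 passed with the correction for length and GC content, at 0.42, and was called with that for 50-base windows across junctions, at 2.12.

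The same libraries of DY131-treated cells can also be set side by side between the pools. This comparison shares its libraries with those above and adds no independent support. Here 50.4% of all tested genes passed without the fold threshold (25.1% higher and 25.3% lower) and 8.21% were called (2.15% higher and 6.06% lower). SNHG5 was at 56.2 and 69.4 cpm in DU145-pc3.1 and at 1.69 and 2.15 cpm in DU145-Esrrb cells (log2 fold change -5.01, SE 0.17, adjusted p = 4.40e-12). SNHG1, SNHG3 and SNHG8 were higher with Esrrb, by 0.46, 0.70 and 0.52 on the log2 scale, and SNHG6 and SNHG12 were lower, with -0.61 and -0.68. SNHG12 passed in 12 of 19 alternatives, and without replicate 1 of DY131-treated DU145-pc3.1 cells its adjusted p was 0.246. GAS5 and SNHG7 did not pass, with -0.07 and -0.15. Without replicate 2 of DY131-treated DU145-pc3.1 cells SNHG7 passed at -0.35 (adjusted p = 0.00277), and GAS5 turned to positive values that passed with the corrections for junction windows and for length and GC content.

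Hosts with longer exons and longer transcripts had the higher log2 fold changes with DY131 in DU145-Esrrb cells. Over the 8 members Spearman's correlation of the log2 fold change with the length of the longest exon was 0.857, and with the share of 50-base windows across junctions it was -0.69. Over all 13701 genes with a matched transcript the values were 0.341 and -0.373. In DU145-pc3.1 cells the correlations over all genes were 0.135 and 0.0103, and over the members 0.619 and -0.595. With the length of the whole transcript, the correlation over the members was 0.881 in DU145-Esrrb and 0.786 in DU145-pc3.1 cells, and over all genes it was 0.213 and 0.226, nearly the same in both pools. The genes share their libraries and are not replicates, so these values describe the libraries and carry no p. Exon and transcript lengths are those of the longest matching transcript, which may not be the form that was counted.

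SNHG5 was in the class of spliced genes with the shortest exons. Of the 11 tested genes with a longest exon of at most 120 bases, 7 were called lower with DY131 in DU145-Esrrb cells, 63.6%, and their median log2 fold change was -2.49. Named after their values were seen, RPS21, a ribosomal protein gene with a longest exon of 72 bases, had -7.83, and UXT, with a longest exon of 108 bases as in SNHG5, had -4.74. The other 4, RPS27, ATP5J2, RPP30 and BCAS4, had values from -0.89 to -0.33 and were not called. The share called lower was 31.7% of 183 genes with a longest exon above 120 and up to 200 bases, the class of GAS5, and 21.1% of 1423 genes with up to 400 bases, the class of SNHG6 and SNHG12. It was 12% with up to 800 bases, the class of SNHG1 and SNHG8, and 5.33% above that, the class of SNHG3 and SNHG7. In DU145-pc3.1 cells the same shares were 0, 4.92%, 3.72%, 3.85% and 2.71%. The part of exon structure in the values of single hosts was not tested beyond the corrections given.

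**Figure D3:**
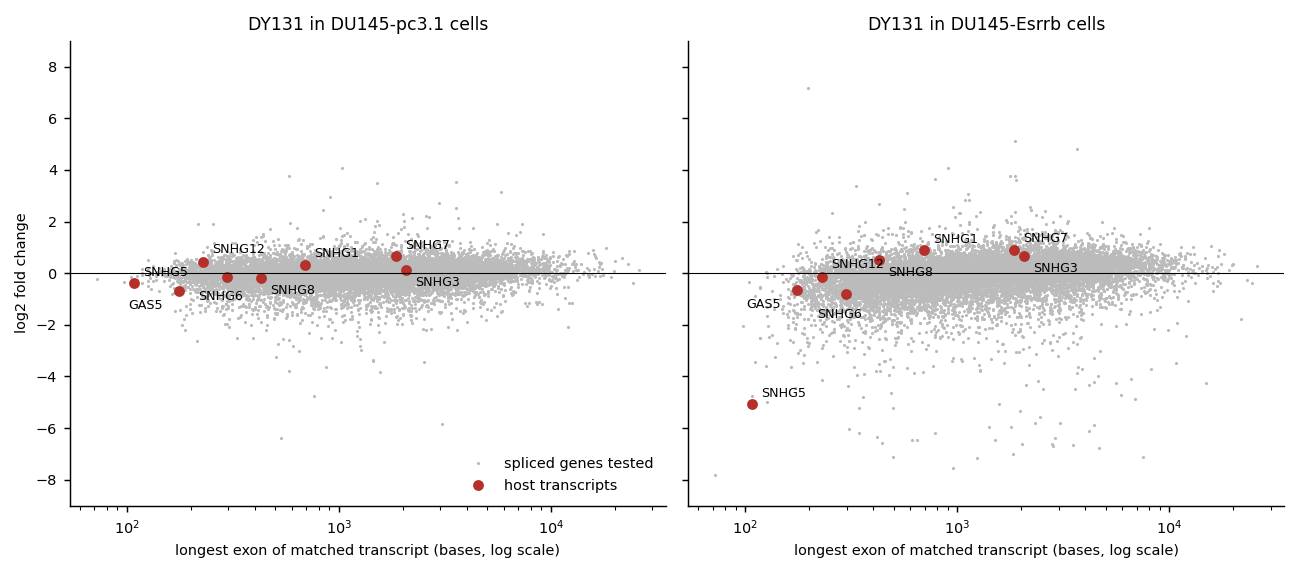
Log2 fold change with DY131 (vertical axis) against the longest exon of the matched transcript (horizontal axis, bases, log scale) for all spliced genes tested (grey) and the 8 host transcripts (red), in DU145-pc3.1 cells on the left and DU145-Esrrb cells on the right. In DU145-Esrrb cells SNHG5, with a longest exon of 108 bases, lies at -5.08 and SNHG7, with 1853 bases, at 0.91.

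The short snoRNAs carried by the hosts had no reads in libraries A and B, whether their host was higher or lower there. The table has 28 rows of snoRNAs listed for the 8 hosts, all within the span of their host, and 6 of them passed the filter. SNORA73A and SNORA73B of SNHG3 and SNORA17A and SNORA17B of SNHG7 have no row under these names. On the 28 rows together between 142 and 301 reads were counted in each of the 6 libraries outside the Esrrb plus DY131 group, and 22 and 12 reads in libraries A and B. Single rows of this kind held few reads, so they are described mostly as sums.

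What the reads on snoRNA rows come from in libraries of polyadenylated RNA was not tested. Counts on host and snoRNA rows parted most clearly at GAS5. Its 10 snoRNAs are 60 to 81 bases long and were counted with 65 and 70 reads in DU145-pc3.1 cells, 87 and 88 in DU145-Esrrb cells, 129 and 54 in DY131-treated DU145-pc3.1 cells, and 0 and 0 in DY131-treated DU145-Esrrb cells. In libraries A and B 340 and 438 reads were counted on the spliced GAS5 transcript, so that the host was counted where its snoRNA rows were at 0. Rows of this length were nearly all without reads in libraries A and B whatever their host, as given below. The sum of the 10 rows, 7.73 ± 0.501 cpm in DU145-Esrrb cells (SD, n = 2), was at least 21.2-fold higher than the mean floor of 3 counts per library in libraries A and B. SNORD47 (20 to 34 reads outside that group) and SNORD80 (18 to 37 reads) gave the most reads, and both had 0 reads in libraries A and B, which is at least 6.35-fold and 5.67-fold lower than in DU145-Esrrb cells by the same floor. SNORD47, SNORD76, SNORD79 and SNORD80 were the tested ones, all 4 called lower with DY131 in DU145-Esrrb cells and none in DU145-pc3.1 cells. With 0 reads in libraries A and B, they reached the filter through the other libraries only. A call could thus only be lower, and it adds nothing to the counts.

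SNHG1 rose while its snoRNA rows fell. Its 8 rows held 46 to 91 reads in each of the other 6 libraries and 12 and 6 reads in libraries A and B. All of the latter were on SNORD22, the longest of the 8 with 126 bases, while SNORD26 and SNORD27 and the 5 others of 65 to 75 bases had 0 reads. SNORD22 was at 1.19 and 1.47 cpm in DU145-Esrrb cells and at 1.56 and 0.678 cpm after DY131, which overlapped (log2 fold change -0.28, SE 0.48, adjusted p = 0.643). Between the pools after DY131 it was called lower, with 3.17 and 1.78 cpm in DY131-treated DU145-pc3.1 cells, the higher value in replicate 1. Per 100 reads on the SNHG1 transcript, 3.67 to 5.26 reads were counted on its snoRNAs in the 6 libraries, and 0.765 and 0.307 in libraries A and B.

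SNHG12 carries the longer H/ACA snoRNAs SNORA16A, SNORA44 and SNORA61, of 130 to 134 bases, and SNORD99 of 80 bases. Its 4 rows held 19 to 55 reads in the other 6 libraries and 7 and 5 in libraries A and B, all on SNORA16A and SNORA61. SNORA61 did not pass with DY131 in DU145-Esrrb cells (log2 fold change -0.18, SE 0.65, adjusted p = 0.832). The rows of SNORD50A and SNORD50B in SNHG5 never held more than 2 reads together, so that the loss of the spliced SNHG5 transcript has no counterpart that could be read at this depth. SNORD87 in SNHG6 (0 to 7 reads), SNORA43 in SNHG7 (0 to 13) and SNORA24 in SNHG8 (0 to 5) were as sparse, and SNORA17 had 0 reads in all libraries.

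**Figure D4:**
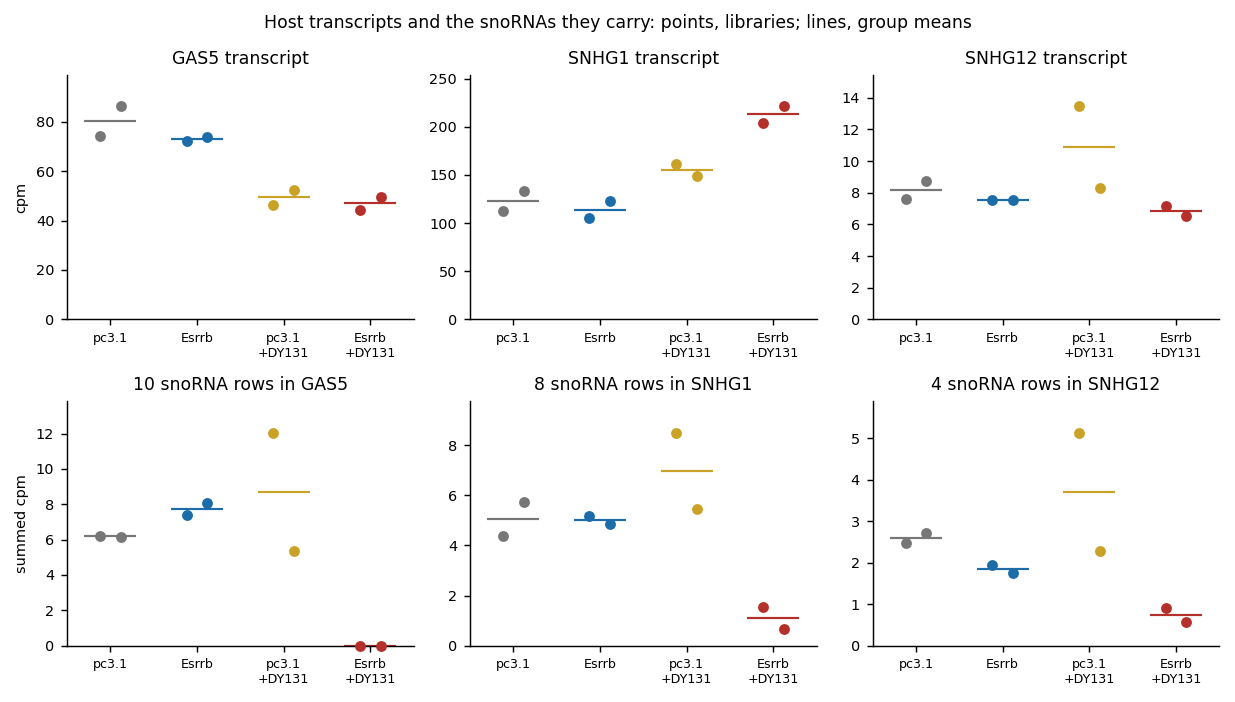
Levels of the GAS5, SNHG1 and SNHG12 transcripts (upper row, cpm) and summed levels of the snoRNA rows within them (lower row, cpm) in the 4 groups, with points for libraries and lines for group means. In DY131-treated DU145-Esrrb cells the SNHG1 transcript is at 204 and 221 cpm while its 8 snoRNA rows sum to less than in any other library, and the 10 rows in GAS5 are at 0.

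The loss was also seen over all short snoRNA rows of the table. It has 392 rows named SNORD, SNORA or SCARNA, and the 28 rows of the hosts are counted among them. Of the 392, 130 to 173 had a read in each of the other 6 libraries and 44 and 51 in libraries A and B. The 241 rows of at most 100 bases held 243 to 417 reads per library and then 3 and 1. Of these rows 106 had a read in the other 6 libraries, and 104 of the 106 had none in libraries A and B. The rows were picked by a read in any of the 6, and libraries A and B are fewer and held fewer reads. Some of the 106 would thus be without a read there in any case. Rows above 100 and under 200 bases fell less, from 33.7 to 59.3 cpm in the 6 libraries to 14.9 and 14.8 cpm, and the 15 rows of 200 bases or more were at 2.48 to 7.19 cpm and at 4.95 and 6.89 cpm, which overlapped. The shortest snoRNA row with a read in libraries A and B was 93 bases long. This length was read from libraries A and B, so the absence of reads on shorter rows there is fixed by its choice and is no support. Of the 200 shorter rows, 82 had reads elsewhere, 1639 in the 6 libraries together.

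Among the 23 snoRNA rows tested, DY131 in DU145-Esrrb cells called 13 lower and 1 higher, SCARNA12 (log2 fold change 1.39), against 12% of all genes. In DU145-pc3.1 cells 1 was called, SNORA32, which was higher (1.42), against 4.19%. The 23 include 6 rows of the hosts, of which 4 are among the 13 called lower. Between the pools after DY131 17 of the 23 were called lower and 0 higher, against 8.21% of all genes called. All 6 rows of the hosts were among these 17. Rows with 0 reads in libraries A and B reached the filter through the other 6 libraries and could only be called lower. The share over all genes is therefore no measure of an excess here. The 5 most counted snoRNA rows outside the 8 hosts are given with their lengths. SNORD58B and SNORD36A, of 66 and 72 bases, had 17 to 44 and 13 to 33 reads in the 6 libraries and 0 in libraries A and B. SNORA40, SNORA18 and SNORA67, of 127 to 137 bases, had 26 to 50, 13 to 31 and 12 to 35 reads, and 5 and 8, 4 and 0, and 5 and 3 reads in libraries A and B.

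**Figure D5:**
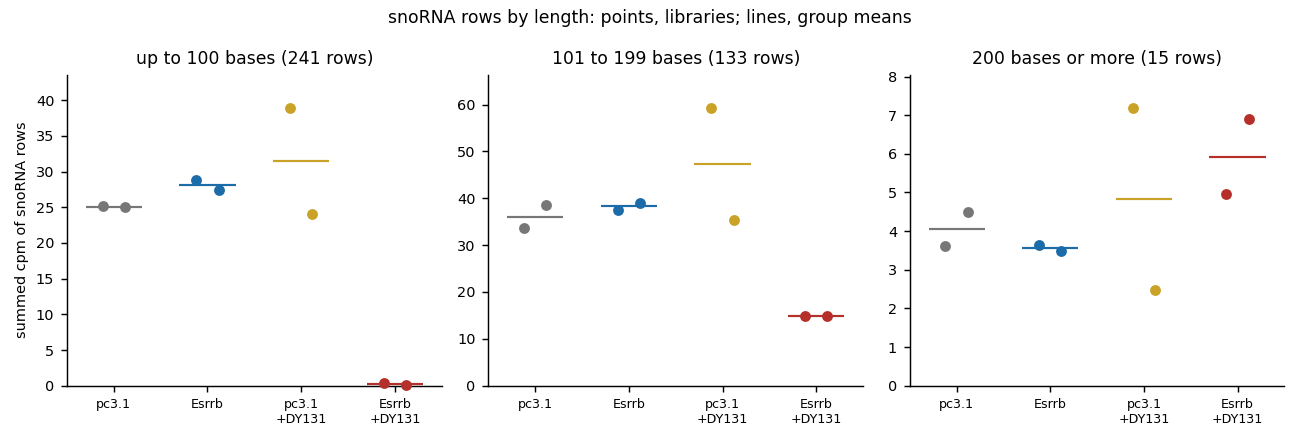
Summed level of the snoRNA rows (vertical axis, cpm) by length class in the 4 groups, with points for libraries and lines for group means. Rows of at most 100 bases drop to 0.391 and 0.113 cpm in DY131-treated DU145-Esrrb cells, rows above 100 and under 200 bases to 14.9 and 14.8 cpm, and rows of 200 bases or more overlap with the other groups.

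Other genes of the same kind were read from lists, of which the table has 7 of 11 further non-coding snoRNA hosts, 45 of 45 protein-coding hosts and 15 of 17 other spliced non-coding RNAs. With DY131 in DU145-Esrrb cells, SNHG9 was the only one of the 7 non-coding hosts called (log2 fold change -2.17, SE 0.47, adjusted p = 9.30e-04). It is a short transcript of 275 bases and went from 1.94 ± 0.0148 to 0.413 ± 0.215 cpm (SD, n = 2). The latter is near the floor of 3 counts, 0.391 and 0.339 cpm in libraries A and B. SNHG9 reached the filter through the other libraries only, so the size of its fall is uncertain. Without the fold threshold 3 more of the 7 passed, all higher. The median of the 7 was 0.05.

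Of the 44 protein-coding hosts tested, 5 were called lower and 1 higher, where 9.04% and 2.98% of all tested genes were, and their median log2 fold change was -0.42. Among those called lower, RPL12, RPS12 and RPLP2, which encode ribosomal proteins, had log2 fold changes of -3.59, -1.97 and -1.60, and GNB2L1, which encodes a scaffold protein of the small ribosomal subunit, had -1.29. RPL12 was at 561 ± 4.15 cpm before and 46.6 ± 1.29 cpm after DY131, and its longest exon has 125 bases. HSPA8, the constitutive cytosolic chaperone, was called higher in both pools, by 1.51 in DU145-Esrrb and by 1.09 in DU145-pc3.1 cells. In DU145-pc3.1 cells it was the 1 protein-coding host called.

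Of the 13 other spliced non-coding RNAs tested, 4 were called lower and 1 higher with DY131 in DU145-Esrrb cells, against the same 9.04% and 2.98% of all tested genes. JPX, a non-coding RNA of the X-inactivation centre, fell by 1.80 on the log2 scale, LINC00263 by 1.42, LINC00467 by 1.21 and TP53TG1 by 1.04, and MIR22HG, the host of a microRNA, rose by 1.19. LINC00263 fell by nearly the same amount in DU145-pc3.1 cells, with a log2 fold change of -1.40, and there it was the 1 called. Between the pools after DY131 JPX and DLEU2 were called lower, and the interaction called JPX and DLEU2 as negative and LINC00152 as positive (1.08).

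The proteins that build snoRNPs and those that carry out nonsense-mediated decay were read because the first bind the snoRNAs and the second remove the spliced hosts. Of 17 snoRNP genes, RUVBL2, an ATPase of the assembly complex, was called lower in DU145-Esrrb cells (log2 fold change -1.72, SE 0.08, adjusted p = 2.58e-10), from 115 ± 2.33 to 35.1 ± 1.40 cpm. The interaction called RUVBL2 and NAF1. Without the fold threshold 7 of the 17 rose and 4 fell, where 29.2% of all tested genes rose and 29.5% fell, with a median of 0.05. Of 17 decay genes, MAGOH, a subunit of the exon junction complex, was called lower (-1.06), and without the fold threshold 11 rose and 3 fell, against the same shares of all genes, with a median of 0.21. In DU145-pc3.1 cells none of either list was called, 8 snoRNP genes rose and 1 fell, and 10 decay genes rose and 0 fell, where 18.9% of all tested genes rose and 18.5% fell.

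The genes most like each host over the 8 libraries were picked by Pearson's correlation of log2 cpm among 10406 tested genes with a mean log2 cpm of at least 3. These values describe 8 libraries and carry no p. SNHG5 went with RPL31, RPL38 and RPS15A, 3 ribosomal protein genes (r = 0.9993, 0.9992 and 0.999), and with DY131 in DU145-Esrrb cells these had log2 fold changes of -2.65, -2.09 and -2.27. Libraries A and B lie far from the other libraries in SNHG5 and largely set these correlations, so the 3 genes restate that contrast. With DY131 in DU145-pc3.1 cells the 3 had -0.29, -0.11 and -0.25, against -0.39 for SNHG5. The matched transcripts of the 3 genes have a longest exon of 516, 852 and 1808 bases. These are the longest matching transcripts, of 825, 1170 and 2203 bases. The forms that were counted may have shorter exons, so no comparison with the exons of SNHG5 is drawn. GAS5 was most like RSL24D1, RPS10-NUDT3 and HINT2, SNHG1 most like CYB5D1, RP9 and ZNF525, and SNHG6 most like MSLN, C11orf48 and NDUFB1, with r from 0.9854 to 0.9953. SNHG7 was most like FOSL2, NLE1 and SRSF6, and SNHG3 most like PLIN2, ZBTB46 and GTPBP3. SNHG8 went with ZNF263, SLAMF7 and BACH1, with r from 0.9632 to 0.9651. SNHG12 went with WDR90, LOC100129361 and PLEKHG4B, at 0.9836, 0.975 and 0.9478.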

How the data were processed

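RNA from DU145 cells was sequenced in 8 libraries, 2 for each of 4 groups, prepared with a stranded kit for polyadenylated mRNA and read from one end over 50 bases. The authors used the FASTX-Toolkit for trimming and TopHat2 with hg18 for mapping, and deposited raw read counts per gene from their program MULTICOM-MAP, and per the labels they used edgeR. How reads with several matches or on the other strand were counted is not given in the sources used here. Groups came from the sample labels, and the DY131-treated DU145-Esrrb libraries share 1 heading, so their replicate numbers are unknown.

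Counts of all 23391 rows were analysed with R 4.3.3, edgeR 4.0.16, DESeq2 1.42.0 and limma 3.58.1, and with Python 3.11.15, numpy 2.4.6, pandas 2.3.3 and matplotlib 3.10.9. The 13856 genes that reached 1 cpm in 2 or more libraries were scaled with TMM factors, and all 4 groups were fitted in 1 model. Each comparison used the quasi-likelihood F test of edgeR, with p adjusted after Benjamini and Hochberg over all tested genes. Called means an adjusted p below 0.05 with a log2 fold change of 1 or more in either direction. Rose, fell and passed refer to the adjusted p alone. The SE is the log2 fold change divided by the square root of F. The steps were tested on simulated data. The floor of 3 counts, 0.254 to 0.391 cpm, covers counting error only.

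Rows were matched to GENCODE 29 transcripts on GRCh38, 22019 by RefSeq identifier, 722 by symbol, 147 by current and 92 by older symbol, and 411 not at all. Where several transcripts matched, the longest was taken, first among those of the row's own symbol. snoRNA lengths and their place within a host came from RefSeq (GRCh38.p14). Sequences are those of GENCODE. The members and the gene lists were chosen with earlier results of these data known. The text names all 8 members, their snoRNAs, the 5 most counted other snoRNA rows, called genes of the other lists (at most 6 per list and comparison) and the 3 genes most like each member. Some genes of these lists are not reported here.

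The alternatives were other tests, scalings, filters and thresholds, fits of the 4 libraries compared, corrections for junction windows of 50 bases and for length and GC content, each library left out, and the replicate number as a block. The correction with windows of 100 bases was added after seeing the data.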

Additional observations from a re-analysis of the deposited data

Results flagged for a closer look

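The response to DY131 differed between the pools, by the interaction term of edgeR's quasi-likelihood fit, for 4 of the 8 host transcripts, where 33.7% of all tested genes passed. SNHG5 had an interaction of -4.69 on the log2 scale (SE 0.21, adjusted p = 2.99e-10), with 13 and 19 reads in DY131-treated DU145-Esrrb cells against at least 602 reads in every other library. SNHG6 had an interaction of -0.67 (SE 0.11, adjusted p = 2.67e-04), and both of its DY131-treated DU145-Esrrb libraries were below the other 6. SNHG1 had an interaction of 0.57 (SE 0.12, adjusted p = 0.00241), and its log2 fold change was positive in both pools. SNHG8 had an interaction of 0.69 (SE 0.18, adjusted p = 0.00855), with log2 fold changes of -0.18 and 0.51, of which the first did not pass. This interaction passed in 14 of 17 alternatives and did not pass with DESeq2 (adjusted p = 0.056). The part of exon structure and of the loss of short snoRNA rows in the same 2 libraries was not tested beyond the corrections given, under which these 4 interactions kept their sign.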

How the results depend on the processing

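SNHG5 was called lower in all alternatives run for DY131 in DU145-Esrrb cells, for Esrrb in DY131-treated cells and for the interaction. The count of called hosts moved to 1, 4, 7, 6 and 4 of 8 without a fold threshold, in the order Esrrb untreated, DY131 in DU145-pc3.1, DY131 in DU145-Esrrb, Esrrb DY131-treated and interaction. For DY131 in DU145-Esrrb cells it was 3 with the 50-base junction correction (GAS5, SNHG1, SNHG5), 2 with that for length and GC content, 2 with the 100-base correction, and 1 to 2 with libraries left out (2 without DU145-Esrrb replicate 2, where SNHG1 joined). For Esrrb in DY131-treated cells it was 2 with either junction correction and 1 to 2 with libraries left out (2 without DU145-pc3.1 + DY131 replicate 1, where SNHG3 joined), and for the interaction it was 2 with either junction correction. Called snoRNA rows were 14 of 23 as reported, 35 of 223 with no filter, 1 of 2 when each library had to hold 10 counts or more, and 7 of 16 with the 100-base correction.

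The sign of a single host's log2 fold change turned in 16 cases, and the cause was not tested. GAS5 became 1.76 (50 bases) and 0.51 (100 bases) for DY131 in DU145-Esrrb cells, and 2.10, 1.01 and 0.30 (50 bases, 100 bases, length and GC content) for Esrrb in DY131-treated cells. SNHG12 became 0.48, 0.42 and 0.31 in the same order for DY131 in DU145-Esrrb cells, and 0.0208 for the interaction (50 bases). With libraries left out, GAS5 ranged from -0.171 to 0.0182 for Esrrb in DY131-treated cells (above 0 without DU145-pc3.1 + DY131 replicate 2) and from -0.0496 to 0.156 for the interaction (below 0 without DU145-pc3.1 replicate 2, DU145-pc3.1 + DY131 replicate 1 or library B). SNHG1 ranged from -0.227 to 0.0193 for Esrrb untreated (above 0 without DU145-pc3.1 replicate 2), SNHG3 from -0.27 to 0.42 for DY131 in DU145-pc3.1 cells and SNHG7 from -0.351 to 0.0730 for Esrrb in DY131-treated cells (both turned without DU145-pc3.1 + DY131 replicate 1).

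Over all genes, the counts called in the same order of comparisons were 80, 580, 1666, 1137 and 870, and without a fold threshold 578, 5185, 8127, 6982 and 4673. Under the filter of 10 counts in each library the first 4 were 43, 315, 1090 and 721. For Esrrb untreated DESeq2 called 48 and fits with a library left out 46 to 126, and for the interaction the 100-base correction left 575. The replicate block was possible for the first 2 comparisons only, in the 6 libraries with a number. It called 0 hosts in both, as the fit without it did, and 66 against 68 and 542 against 553 genes. Same-numbered libraries did not deviate together (correlations 0.0917, 0.0229 and -0.0685), so they share only a number. The exact test and the fit of 4 libraries give no interaction. At this depth 23 of 392 snoRNA rows passed the filter and were tested.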
